A study of Homo sapiens with 12 samples.

Results

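Untreated PEO4 ovarian cancer cells differed in the same direction from each of the colorectal cancer lines SW480 and SW620 in 8687 (37.9%) of 22936 genes tested, of 57500 genes in the count table. A gene counted as a member when edgeR's quasi-likelihood test, with Benjamini-Hochberg adjustment over all tested genes and a threshold of 0.05, called it against SW480 and against SW620 with the same sign. PEO4 was higher in 4409 of these genes and lower in 4278. PEO4 is an established ovarian cancer line, and its 3 control libraries came from cells in RPMI 1640 with 10% fetal bovine serum and penicillin/streptomycin. SW480 was derived from a primary colorectal tumour and SW620 from a metastasis of the same patient, and the 3 libraries of each came from untreated cells in DMEM with the same serum and antibiotic supplements. Another 3 PEO4 libraries came from cells given the cytokine TGF-β (10 ng/mL, 6 days). They took no part in the choice of genes and are quoted only beside it. Tissue of origin, patient, line and medium all differ together between PEO4 and the SW lines, so these cannot be told apart, and each tumour type is represented by lines of 1 patient.

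The Müllerian tract, from which most high-grade ovarian carcinomas are thought to arise, is specified by transcription factors such as PAX8, WT1, EMX2 and the HOXA genes, and its tumours often carry estrogen receptor and the surface glycoproteins MUC16 and mesothelin. Intestinal epithelium is specified by CDX2 and the hepatocyte nuclear factors, and most colorectal cancers have constitutive Wnt signalling, which keeps TCF and LEF target genes on. HOX genes lie in clusters and record the position of a cell's origin along the body axis.

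The 9 libraries held 14531420 to 22028956 gene-assigned counts, which sets only the counting error of the levels, and means are given ± SD of 3 libraries. Levels are given as CPM (counts scaled to a common library size with TMM factors, over the tested genes), in the order of replicates 1 to 3, and 3 means in a row are those of PEO4, SW480 and SW620. The first principal component, with 63.8% of the variance, separated PEO4 from both SW lines, and the second (23.4%) separated SW480 from SW620. The third (6.32%) set the replicate 2 libraries of all 3 lines apart from the replicate 3 libraries of both SW lines. Replicate 2 was the shallowest library of each line. Those of the SW lines were the shallowest of the 9, while that of PEO4 held 18453233 counts beside 20076734 and 20457751 in replicates 1 and 3. The part of depth in this component was not tested. Replicate libraries of 1 group differed by more than counting noise, with a chi-square of 11.1 to 67.6 per degree of freedom. The labels call the replicates biological and say no more of them, so the tests measure the spread between these libraries. A level of 3 counts, taken as the floor of detection, was 0.144 to 0.183 CPM depending on the library, for counting error only. Some libraries also held low counts of genes that marked the other side. Over 35 to 42 genes of at least 100 CPM in PEO4 whose other SW libraries averaged under 1% of that level, the remaining SW library held 0.0765% to 0.963% of it, with the highest share in SW620 replicate 3. Over 4 to 8 genes of at least 100 CPM in both SW lines, the shares were 0.294% and 0.436% in PEO4 replicates 1 and 2 and 1.62% in replicate 3. Folds above about 100 rest on levels of this size, and the source of these counts was not tested.

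Against SW480 alone 12302 genes were called (53.6% of those tested), with PEO4 higher in 5896 (25.7%) and lower in 6406 (27.9%). Against SW620 alone 12650 were called (55.2%), 6414 higher (28%) and 6236 lower (27.2%). Both comparisons use the same 3 PEO4 libraries. The share called higher in PEO4 than in each line was 19.2% and the share called lower was 18.7%, and these are the backgrounds for the counts below. Among protein-coding genes alone the shares were 23.9% and 19.4%, a nearer background for lists of such genes. Another 482 genes (2.1%) were called with opposite signs. As a description of genes chosen on these 9 libraries, the 3 PEO4 libraries lay wholly above the 6 SW libraries in 4361 of the 4409 called higher (23.1% of all tested genes had such a gap) and wholly below in 4058 of the 4278 called lower (21% of all). A fold of 2 or more in both fits together with such a gap held for 3042 genes higher (13.3%) and 2961 lower (12.9%). The split depended on scaling: of the calls, 50.8% were higher with TMM factors and 37.5% (3492 higher, 5816 lower) with total counts, where the median log2 difference of all genes moved from -0.10 and -0.06 to -0.35 and -0.38 against SW480 and SW620. At the threshold itself, RGMB-AS1 (adjusted p = 0.0499966 in edgeR's test) was the last gene inside on the higher side and SNX18P3 (0.0498832) on the lower side, while LIMS1-AS1 (0.0500007) fell outside.

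Both directions reached large sizes. Folds here are the smaller of the 2 ratios of mean CPM, with each mean held at the floor or above. By this measure 636 genes were at least 16-fold higher in PEO4 and 295 at least 16-fold lower, and 122 and 36 passed 100-fold. All 6 SW libraries sat at or under the floor in 385 (8.73%) of the genes called higher and in 1.68% of all tested genes, and SW480 alone or SW620 alone did so in another 162 and 179. The 3 PEO4 libraries sat at or under it in 867 (20.3%) of the genes called lower and in 5.87% of all tested genes. A criterion over 3 libraries is easier to meet than one over 6. Protein-coding genes were called higher in 23.9% and lower in 19.4% of 15131 tested, long non-coding genes in 11.3% and 18.9% of 4538, and pseudogenes in 9.1% and 14.5% of 2242. In the TGF-β-treated PEO4 libraries, 4202 (95.3%) of the genes called higher lay wholly above the 6 SW libraries and 3794 (88.7%) of those called lower wholly below, against 24.6% and 22% of all tested genes. The genes were chosen for their difference from these same SW libraries, and the treated cells are of the same line. These shares are therefore a description and no independent check.

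Genes of the Müllerian tract and of ovarian carcinoma were mostly higher in PEO4. Of 17 on the list 15 were tested, and 11 were higher and 1 lower. Any member near 0 in both SW lines passed the filter on low counts through PEO4 and could not come out lower. With at least 10 counts in every library 9 were tested, with 6 higher and 1 lower, so these counts are a description only. The list was chosen with earlier results of these data known. HOXA9 and HOXA10, genes of the Müllerian duct, are counted with the HOX genes and not here. They were 210.5-fold and 84-fold lower in PEO4. PAX8, a lineage factor of Müllerian and thyroid epithelium, stood at 601, 578 and 564 CPM in PEO4, 42.5, 62.1 and 33.9 in SW480 and 41.5, 60 and 41.1 in SW620. No PEO4 library came near an SW library, and the difference was 12.2-fold (log2 differences 3.65 (SE 0.25) and 3.61 (SE 0.25) against SW480 and SW620, adjusted p = 1.8e-07 and 1.5e-07 in edgeR's test). PAX8 overlaps the antisense gene PAX8-AS1, and without strand information reads of the 2 cannot be told apart. WT1, a zinc finger factor of the urogenital ridge and of serous ovarian carcinoma, stood at 243, 225 and 207 CPM in PEO4, 4.29, 4.57 and 4.28 in SW480 and 20.9, 19 and 27.5 in SW620. SW620 was therefore higher than SW480 but still 10-fold below PEO4. EMX2, a homeobox factor of the urogenital tract, averaged 114 ± 6.38 CPM in PEO4 and 1.08 ± 0.496 and 0.325 ± 0.366 in SW480 and SW620 (106-fold), and MEIS1, a HOX cofactor, 329.9 ± 26.3 against 4.22 ± 0.679 and 7.99 ± 1.66 (41.3-fold).

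The list also holds surface proteins. MUC16, the mucin that carries the CA125 epitope, stood at 6286, 7521 and 3964 CPM in PEO4, 39.5, 38.9 and 49.4 in SW480 and 2.48, 0.281 and 36.5 in SW620. SW620 varied widely between its libraries, and the lowest PEO4 library was far above every SW library. Mesothelin (MSLN), a binding partner of MUC16, averaged 679.6 ± 56.7 CPM in PEO4 and was 12.1-fold higher, and BCAM, a laminin receptor, was 17.5-fold higher (WT1, MSLN and BCAM were chosen after their values were seen). SLC34A2, a phosphate transporter, was at least 19.5-fold higher. CDH6, a kidney and ovary cadherin, stood at 205, 52.4 and 44.4 CPM in PEO4 and averaged 0.251 ± 0.207 and 0.569 ± 0.757 in SW480 and SW620. Its difference of 177-fold moved with single libraries and was 85-fold without PEO4 replicate 1 and 401-fold without SW620 replicate 3. The list also held an exception, MECOM, a zinc finger oncogene, which was called lower at 0.118 ± 0.0627 CPM in PEO4 against 0.763 ± 0.139 and 0.839 ± 0.285. Among members that did not pass in both comparisons, SOX17, a Müllerian endoderm-type factor, averaged 1.67 ± 0.228 CPM in PEO4 and 2.68 ± 0.262 and 3.14 ± 0.366 in the SW lines, and FOLR1, the folate receptor, averaged 13.2 ± 2.39 CPM against 3.58 ± 2.01 and 17 ± 11.2; these 2 were picked after their values were seen. The median log2 difference of the tested list was 4.92 against SW480 and 4.70 against SW620, beside -0.10 and -0.06 over all tested genes.

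**Figure D1:**
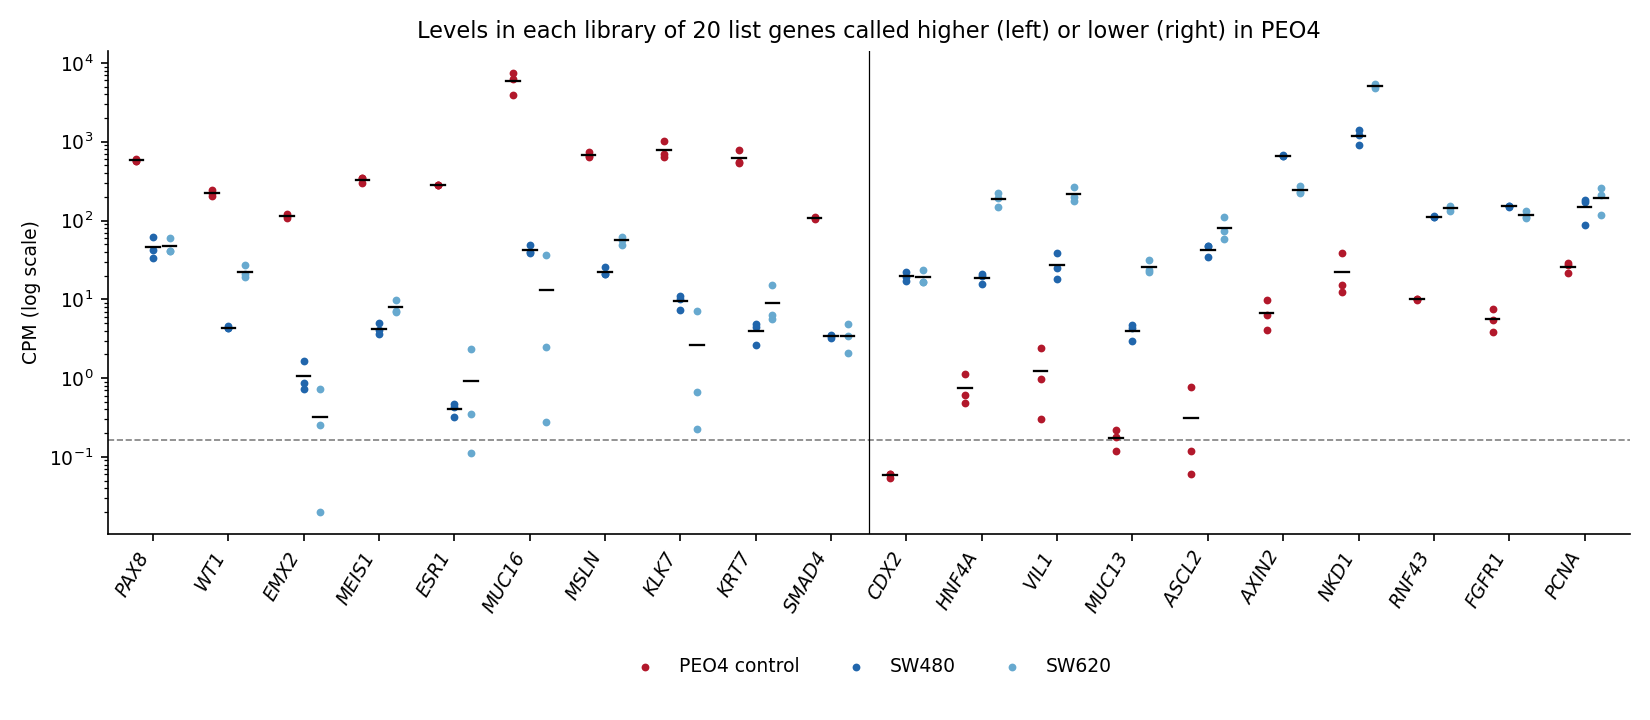
Levels of 20 genes in the 9 libraries, in CPM on a log scale; each point is 1 library, bars are means of 3, the dashed line is the 3-count floor, and values under 0.02 are drawn at 0.02. The PEO4 points lie above all SW points for the genes on the left and below all SW points for those on the right, and ESR1, MUC16 and KLK7 spread widely within SW620.

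Of 26 nuclear receptors tested, 7 (26.9%) were higher and 5 (19.2%) lower, shares near those of all tested genes, so the differences below are of single members. ESR1, estrogen receptor alpha, stood at 279.6, 285 and 279 CPM in PEO4, 0.471, 0.427 and 0.321 in SW480 and 0.354, 0.112 and 2.31 in SW620. The PEO4 libraries were nearly equal, and the SW libraries were close to the floor except SW620 replicate 3. The difference was 304-fold, or 692-fold without that library (log2 differences 9.41 (SE 0.64) and 8.19 (SE 0.58), adjusted p = 1.7e-07 and 1.9e-07 in edgeR's test). NR3C1, the glucocorticoid receptor, averaged 293 ± 15 CPM against 14.3 ± 1.35 and 2.06 ± 1.02 (20.4-fold). Retinoic acid receptor gamma (RARG), NR2F6 and NR2F2 were also higher, by 3.11-fold, 2.48-fold and 1.91-fold. On the lower side were PPARG, a lipid-sensing receptor of colon epithelium and fat (16.5-fold), NR2F1 (13.3-fold) and RXRA, the shared partner of many of these receptors (1.59-fold), together with HNF4A, described with the intestinal genes. In the TGF-β-treated PEO4 libraries ESR1 averaged 178 ± 11.2 CPM.

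The kallikrein-related peptidases, secreted serine proteases encoded side by side on chromosome 19, split by gene. Of 10 tested, 5 were higher in PEO4 and 3 lower. KLK7 stood at 1027, 701 and 636 CPM in PEO4, 10.9, 7.32 and 10.1 in SW480 and 0.657, 0.225 and 7.07 in SW620, and KLK6 at 620.0, 426 and 333 CPM in PEO4, 130.0, 80.1 and 148 in SW480 and 61.8, 40.6 and 95.2 in SW620. KLK6 was thus expressed in all 3 lines and 3.86-fold higher in PEO4, while KLK7 was 83.5-fold higher. KLK5, the protease that activates KLK7, averaged 166 ± 23.1 CPM in PEO4 and 0.181 ± 0.115 and 0.791 ± 1.15 in the SW lines, a difference of 209-fold, or 915-fold without SW620 replicate 3. KLK8 was 171-fold higher and KLK10 4.58-fold. KLK1, tissue kallikrein, went the other way, at 0.24, 0.723 and 0.326 CPM in PEO4, 15.4, 12.1 and 18.3 in SW480 and 14.7, 9.44 and 21.6 in SW620, and KLK3 (at least 18.8-fold) and KLK15 (at least 7.55-fold) were lower as well. The KLK1 difference of 35.5-fold was 54-fold without PEO4 replicate 2.

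Intestinal lineage genes were lower or not called, and none was higher. Of 25 listed genes 17 were tested, and 12 were lower in PEO4. All 3 PEO4 libraries sat at or under the floor in 14 of the 25. Those of the 14 that were tested passed the filter on low counts through the SW lines and could not come out higher. With at least 10 counts in every library 3 were tested, with 1 lower and none higher, so these counts are a description only. CDX2, the homeobox factor that specifies intestine, stood at 0.0599, 0.0602 and 0.0543 CPM in PEO4, 17.1, 19.4 and 22 in SW480 and 16.8, 16.4 and 23.8 in SW620. It was under the floor in all 3 PEO4 libraries and similar in both SW lines, so PEO4 was at least 109-fold lower (adjusted p = 6.3e-09 and 6.6e-09 in edgeR's test). HNF4A, a nuclear receptor of gut and liver epithelium, stood at 0.479, 0.602 and 1.14 CPM in PEO4, 15.5, 21.1 and 19.8 in SW480 and 194, 149 and 226 in SW620. The SW lines themselves differed, with SW620 higher in every library, and the smaller fold against PEO4 was 25.4-fold. VIL1, the brush border protein villin, averaged 1.24 ± 1.1 CPM in PEO4, 27.2 ± 10.4 in SW480 and 215 ± 46.3 in SW620. EPS8L3, an actin regulator, averaged 0.488 ± 0.387, 25.6 ± 6.05 and 121 ± 8.29. Without PEO4 replicate 3 the VIL1 fold rose from 22-fold to 43.1-fold and that of EPS8L3 from 52.4-fold to 94.5-fold. For CDH17 and GPA33, also called lower, the fold fell when a library was left out (picked after their values were seen). That of CDH17 went from 3.28-fold to 2.12-fold without SW480 replicate 2. That of GPA33 went from 2.79-fold to 0.848-fold without SW620 replicate 2. Both means were then at or under the floor, so 0.848 is a ratio of floors and shows no direction. GUCY2C, LGALS4, MUC2 and PHGR1 were among the 5 tested members not called in both comparisons (named after their values were seen). The colon markers CEACAM5, KRT20 and CDX1 did not pass the filter on low counts; CEACAM5 stood at 0.152, 14.1 and 0.0962 CPM in SW620, so replicate 2 alone held more than a few counts.

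MUC13, a transmembrane mucin of gut epithelium, averaged 0.172 ± 0.0487 CPM in PEO4, 3.99 ± 0.931 in SW480 and 25.7 ± 4.99 in SW620, at least 22.9-fold lower in PEO4. Its promoter is shown because, of 16 promoters of the intestinal list found in the RefSeq table (GRCh38.p14, 250 bases before to 50 after the start), it alone holds the letters CAAAGTCCA, a common form of the HNF4 binding word, on either strand. The promoter lies at chr3:124934702-124935001 on the minus strand, and the capitals mark the word on the opposite strand, 51 bases before the start.
MUC13: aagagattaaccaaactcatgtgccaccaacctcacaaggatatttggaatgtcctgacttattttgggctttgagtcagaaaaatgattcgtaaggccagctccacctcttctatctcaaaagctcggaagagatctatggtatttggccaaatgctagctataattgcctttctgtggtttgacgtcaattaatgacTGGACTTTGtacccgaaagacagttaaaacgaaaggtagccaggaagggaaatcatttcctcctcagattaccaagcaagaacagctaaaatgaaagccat
Of 27195 promoters of this length, 98 (0.36%) hold the word on either strand. TTTATNG, a word bound by CDX factors, was in 4 of the 16 (FABP1, MUC2, MYO1A and CDX2) and in 10.1% of all promoters. These are matches of letters, and no binding was measured.

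Wnt target genes were lower in PEO4 in 11 of 17 tested, and none was higher. AXIN2, a feedback inhibitor and the most widely used readout of the pathway, stood at 4.13, 6.39 and 9.88 CPM in PEO4, 650.1, 656 and 689 in SW480 and 232, 224 and 276 in SW620. It was highest in SW480 and 35.9-fold lower in PEO4 than in the nearer line (log2 differences -6.61 (SE 0.31) and -5.16 (SE 0.29), adjusted p = 1.1e-08 and 3.1e-08 in edgeR's test). NKD1, an inhibitor acting on Dishevelled, stood at 12.5, 15.2 and 38.2 CPM in PEO4, 904, 1401 and 1203 in SW480 and 5051, 5423 and 4846 in SW620. ASCL2, a stem cell factor of intestinal crypts, averaged 0.313 ± 0.388 CPM in PEO4 and 42.6 ± 7.41 and 81.1 ± 28 in SW480 and SW620, and SP5 1.43 ± 0.155, 132 ± 16.9 and 141 ± 55. PROX1 averaged 3.5 ± 3.41, 194 ± 46.2 and 724 ± 26.5 CPM, and NOTUM, a secreted Wnt deacylase, 10.1 ± 7.64, 193 ± 39.1 and 857 ± 158. PEO4 replicate 3 was the highest PEO4 library for AXIN2, NKD1, ASCL2, PROX1 and NOTUM. Without it the folds rose to 84.2-fold for NKD1 (from 53.2-fold), 237-fold for ASCL2 (from 136-fold), 127-fold for PROX1 (from 55.4-fold) and 32.9-fold for NOTUM (from 19.1-fold). The median log2 difference of the list was -3.48 against SW480 and -3.50 against SW620. MYC and CCND1, which many other pathways also drive, were not called in both comparisons: MYC averaged 563 ± 74.1 CPM in PEO4, 363 ± 34.2 in SW480 and 649.9 ± 244 in SW620, and CCND1 545 ± 52.7, 3428 ± 949 and 403 ± 86.7 (picked after their values were seen).

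Most HOX genes were lower in PEO4. Of 34 tested, 30 were lower in PEO4 and 2 higher, with medians of -6.04 and -6.13 on the log2 scale. All 3 PEO4 libraries sat at or under the floor in 17 of the 39 listed. Those of the 17 that were tested passed the filter on low counts through the SW lines and could not come out higher. With at least 10 counts in every library 8 were tested, with 4 lower and 2 higher. Over all alternatives the medians reached -1.93 and -1.88 at their smallest. The 2 genes called higher lay together at the 3′ end of the HOXB cluster. HOXB2 stood at 334, 258 and 273 CPM in PEO4, 20.3, 13.7 and 18.3 in SW480 and 1.97, 2.42 and 3.94 in SW620, and HOXB3 at 423, 379.9 and 425 CPM in PEO4, 239, 291 and 214 in SW480 and 49.3, 56.3 and 46.2 in SW620. HOXB2 was thus 16.5-fold higher in PEO4 and HOXB3 1.65-fold, and the HOXB3 call against SW480 was lost with total counts (adjusted p = 0.055 in edgeR's test). HOXB4, which was not called in both comparisons, averaged 163 ± 12.8 CPM in PEO4, 116 ± 45.9 in SW480 and 27.9 ± 6.58 in SW620, and HOXC4, also not called, 3.57 ± 0.28, 2.83 ± 0.839 and 6.89 ± 1.8. From HOXB5 on, the same cluster turned over: HOXB9 stood at 0.18, 0.0602 and 0.597 CPM in PEO4, 121, 98 and 132 in SW480 and 63.4, 45.3 and 82.6 in SW620, and HOXB8 averaged 0.185 ± 0.216, 175 ± 34.8 and 19.3 ± 6.93. In the HOXA cluster, HOXA9 stood at 0, 0.181 and 0.597 CPM in PEO4, 66.2, 60.8 and 73 in SW480 and 47.9, 48.9 and 67 in SW620. HOXA10 averaged 0.229 ± 0.147, 24.5 ± 4.17 and 19.2 ± 5.23 and HOXA3 0.247 ± 0.167, 25.9 ± 0.0772 and 41.8 ± 4.73. HOXA9 and HOXA10 are genes of the Müllerian duct, and their levels in PEO4 were at or near the floor. The clusters hold antisense transcripts, HOXA10-AS over HOXA9 among them, so single HOX counts are uncertain without strand information. HOXC8 averaged 0.112 ± 0.109, 13.5 ± 0.735 and 13.2 ± 3.8 CPM. The folds were 228-fold for HOXB9, or 354-fold without PEO4 replicate 3, 210.5-fold for HOXA9 and 104-fold for HOXB8 (adjusted p = 1.7e-08 and 2.8e-08 for HOXB9 in edgeR's test). The summed HOX level of PEO4 nevertheless lay between those of the SW lines, at 799 to 946 CPM in PEO4, 1235 to 1305 in SW480 and 528 to 661 in SW620, and HOXB2, HOXB3 and HOXB4 made up most of it in PEO4.

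**Figure D2:**
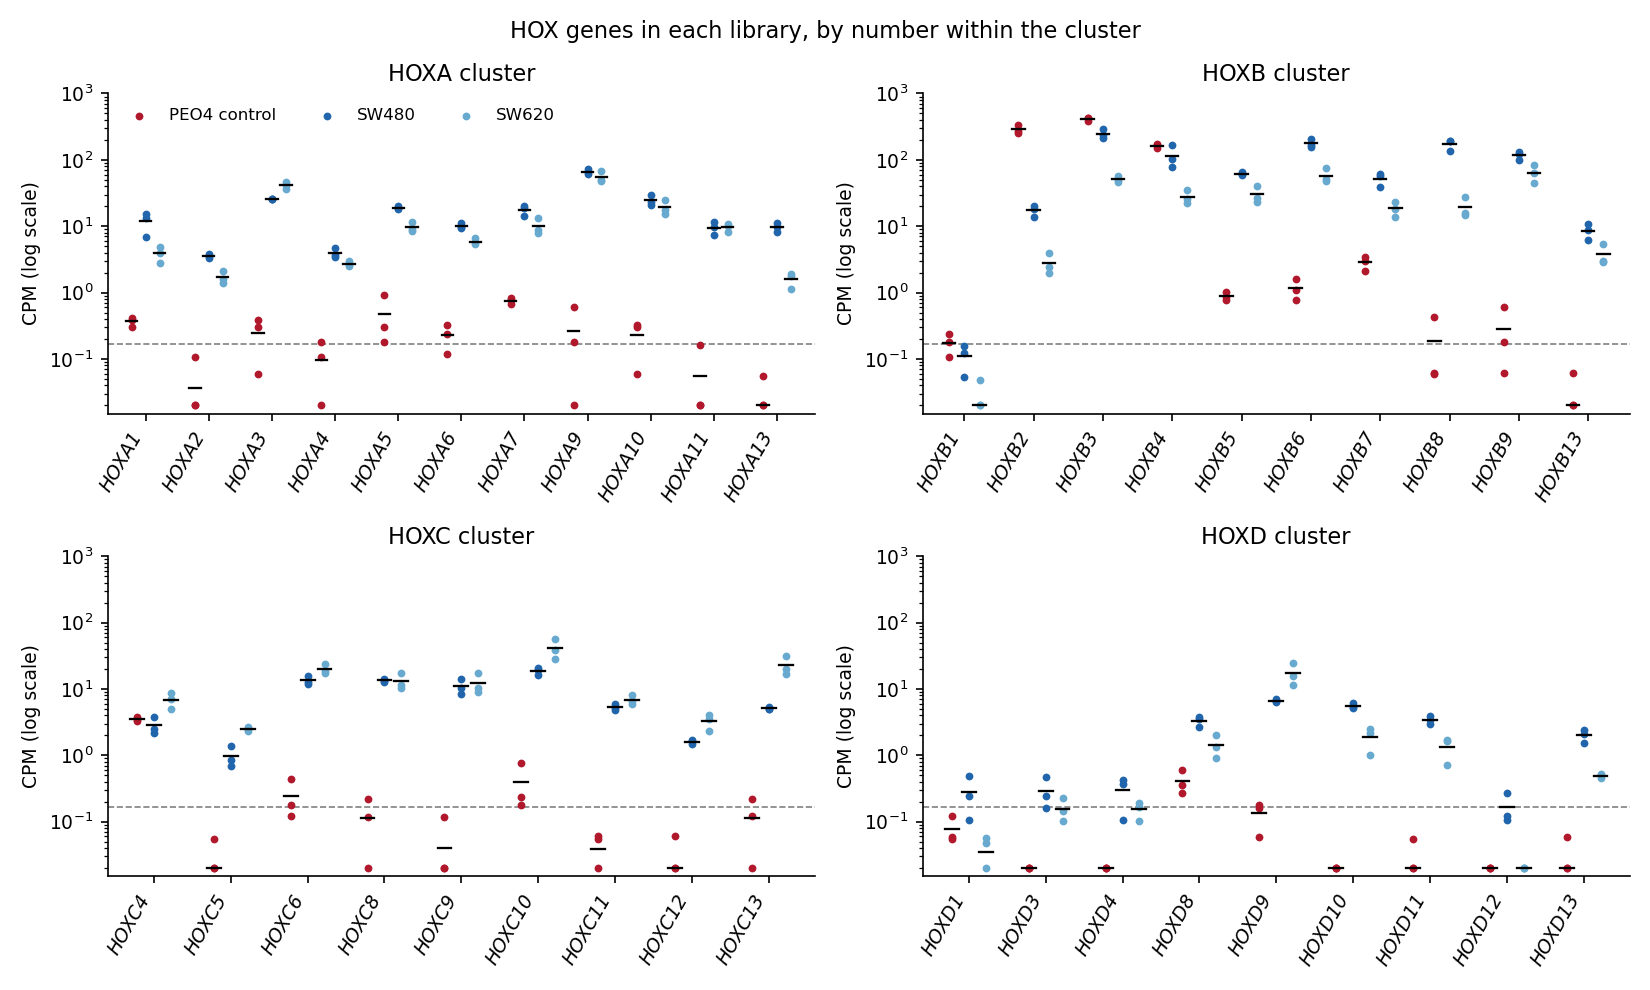
HOX genes by cluster and number, in CPM on a log scale; points are libraries, bars are means of 3, the dashed line is the 3-count floor, and values under 0.02 are drawn at 0.02. In PEO4 HOXB2, HOXB3 and HOXB4 lie above 100 CPM, while the genes of the HOXA and HOXD clusters lie under 1 CPM.

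Transcription factors of other epithelia went both ways, with 6 of 20 tested higher and 9 lower. GRHL2, which maintains epithelial junction genes, stood at 186, 164 and 172 CPM in PEO4, 1.73, 1.77 and 2.35 in SW480 and 0.404, 0.112 and 1.3 in SW620 (89.4-fold). TFAP2A was 34.5-fold higher, ELF3 8.51-fold, GATA3 4.16-fold, TFAP2C 3.11-fold and FOXA1 2.79-fold. EHF, an ETS factor related to ELF3, was the reverse of it, at 3.13 ± 0.759 CPM in PEO4 against 43.4 ± 4.04 and 40.7 ± 10.5. GATA2 averaged 1.57 ± 0.692, 103 ± 11.1 and 13.9 ± 2.88 CPM. The foregut factors FOXA2 (8.23-fold), FOXA3 (at least 14.6-fold) and PDX1 (at least 7.12-fold) were lower in PEO4, as was SOX2 (at least 5.49-fold), whose SW level was mostly in SW620 (0.958 ± 0.339 CPM in SW480, 36.4 ± 14 in SW620).

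**Figure D3:**
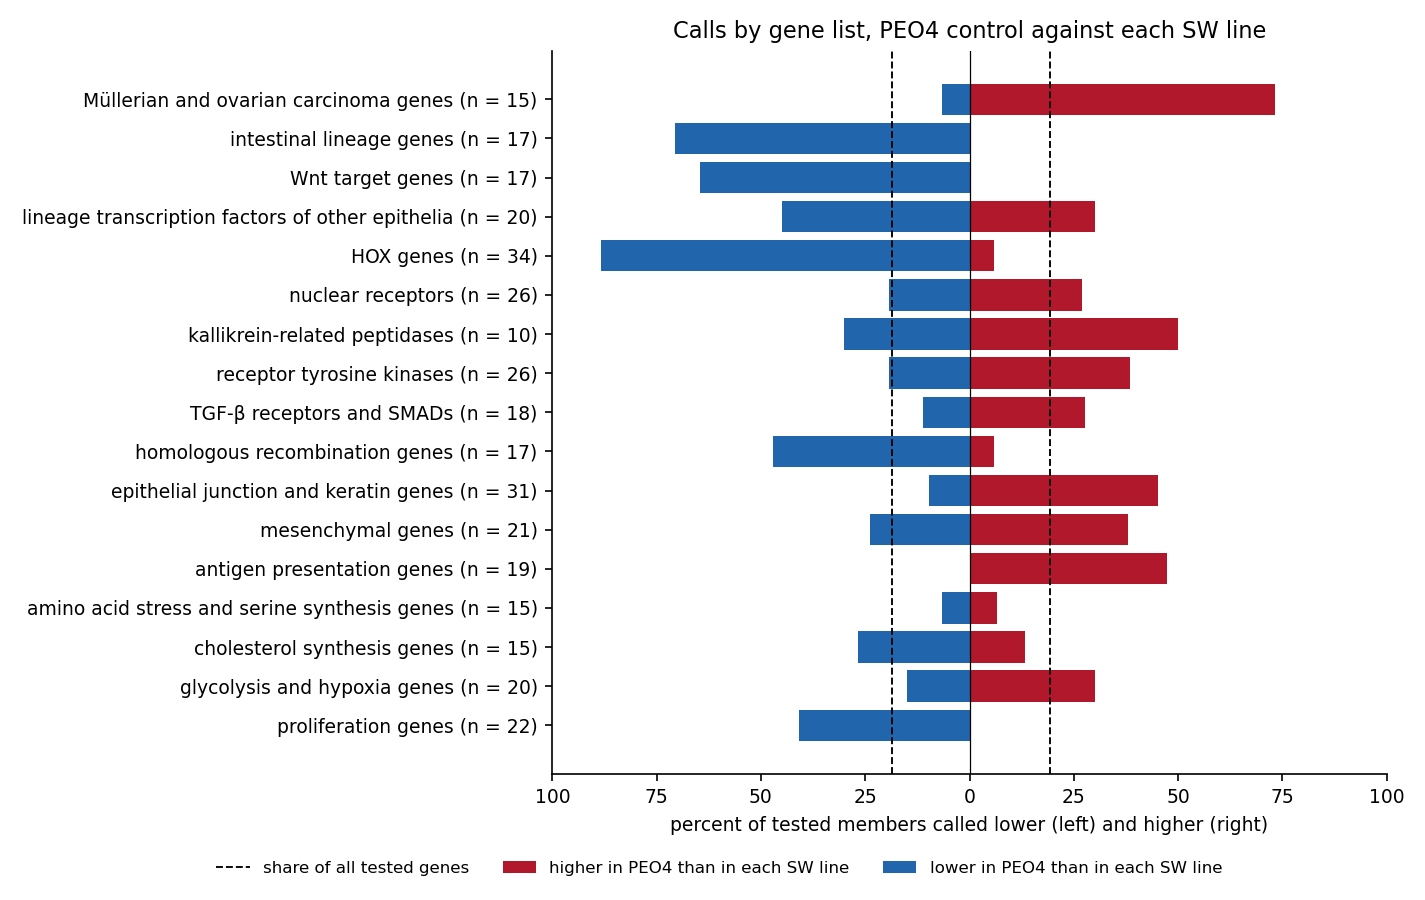
Share of the tested members of 17 gene lists called higher (right) or lower (left) in PEO4 than in each SW line. Dashed lines are the shares of all tested genes, 19.2% and 18.7% (23.9% and 19.4% among protein-coding genes, not drawn). The Müllerian list reaches furthest to the right and the HOX, intestinal and Wnt lists furthest to the left.

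Receptors and signal transducers differed member by member. Of 26 receptor tyrosine kinases tested, 10 were higher and 5 lower. ERBB4, a neuregulin receptor, stood at 67.1, 139 and 110.4 CPM in PEO4, 1.41, 2.62 and 1.87 in SW480 and 1.11, 1.52 and 2.64 in SW620 (53.6-fold). FGF receptors split: FGFR3 averaged 53.3 ± 12.8 CPM in PEO4, 3.87 ± 0.534 in SW480 and 5.65 ± 0.456 in SW620, FGFR2 66 ± 5.68, 18.7 ± 5.11 and 0.325 ± 0.427, but FGFR1 was 20.7-fold lower, at 3.83, 5.54 and 7.55 CPM in PEO4, 148, 153 and 152 in SW480 and 109.7, 108 and 133 in SW620. FGFR4 was 1.91-fold lower. RET (9.15-fold), DDR2 (3.11-fold) and EPHA1 (2.75-fold) were higher, and TYRO3 (4.14-fold) and MST1R (1.9-fold) lower.

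Of 18 TGF-β receptors and SMADs, 5 were higher and 2 lower. SMAD4, the common partner of the receptor-activated SMADs, stood at 111, 106 and 108 CPM in PEO4, 3.24, 3.41 and 3.48 in SW480 and 3.44, 2.08 and 4.86 in SW620. Both SW lines were low in every library, and PEO4 was 31.3-fold higher (log2 differences 5.00 (SE 0.25) and 4.95 (SE 0.25), adjusted p = 1.8e-08 and 1.5e-08 in edgeR's test). SMAD2, which lies on the same chromosome arm, averaged 306 ± 13.3 CPM against 90.5 ± 1.95 and 91.6 ± 8.7 (3.34-fold). SMAD9 (2.39-fold), ACVR2A (1.82-fold) and the inhibitor SMAD6 (1.55-fold) were higher, and SMAD1 (1.47-fold) and ACVR1B (1.38-fold) lower. The ACVR1B call against SW620 was lost with DESeq2 (adjusted p = 0.053) and, in edgeR's test, when PEO4 replicate 1, 2 or 3, SW480 replicate 1 or SW620 replicate 1 or 3 was left out (adjusted p from 0.071 to 0.21). The SMAD1 call against SW480 was lost in edgeR's test when PEO4 replicate 1, 2 or 3 or SW480 replicate 1 or 3 was left out (adjusted p from 0.055 to 0.11), and the SMAD6 call against SW620 with total counts (0.17). The receptors TGFBR1 and TGFBR2 were not called in both comparisons: TGFBR1 averaged 27.6 ± 1.89 CPM in PEO4, 120.3 ± 19.3 in SW480 and 36.6 ± 5.8 in SW620, and TGFBR2 56.8 ± 18.3, 56.5 ± 8.71 and 135 ± 35.1 (picked after their values were seen).

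All 3 lines expressed most epithelial genes, at different levels. Of 31 tested epithelial junction and keratin genes, 14 were higher in PEO4 and 3 lower. KRT7, a keratin of Müllerian and other simple ducts, stood at 789, 558 and 534 CPM in PEO4, 2.62, 4.51 and 4.81 in SW480 and 5.56, 6.29 and 15.3 in SW620. The difference was 69.2-fold, or 106-fold without SW620 replicate 3. KRT8 and KRT18, the simple epithelial keratin pair, were lower: KRT8 stood at 952, 879.5 and 920.1 CPM in PEO4, 2629, 1709 and 2707 in SW480 and 2227, 1449.7 and 3050.4 in SW620, and KRT18 was 2.49-fold lower. The desmosomal cadherin DSC2 was 44.8-fold higher, KRT81 10.2-fold, CLDN3 7.28-fold, the splicing factor ESRP1 4.98-fold and CLDN4 4.3-fold. Desmoplakin (DSP) was 1.43-fold lower, a call against SW480 that was lost with DESeq2 (adjusted p = 0.053) and, in edgeR's test, when PEO4 replicate 2 or 3, SW480 replicate 1 or 3 or SW620 replicate 1 was left out (adjusted p from 0.075 to 0.21).

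Mesenchymal genes did not move as a group, with 8 of 21 higher and 5 lower. VIM, the intermediate filament vimentin, stood at 24, 6.45 and 6.68 CPM in PEO4, 345, 255 and 318 in SW480 and 129.7, 134 and 168 in SW620, and ZEB1, a repressor of epithelial genes, at 2.1, 0.542 and 0.869 CPM in PEO4, 15.4, 16.9 and 16.5 in SW480 and 30.5, 29.9 and 22.7 in SW620. PEO4 replicate 1 was the highest PEO4 library for both, and without it the folds rose from 11.6-fold to 21.9-fold for VIM and from 13.9-fold to 23.1-fold for ZEB1. S100A4 was 28.7-fold lower (44.3-fold without PEO4 replicate 3), SNAI2 8.28-fold and ITGA5 2.55-fold. SPARC, a matrix glycoprotein, was the reverse, at 317, 148 and 97 CPM in PEO4, 2.98, 1.95 and 3.42 in SW480 and 0.253, 0.955 and 2.36 in SW620 (67.3-fold, or 44-fold without PEO4 replicate 1). TWIST1 (at least 25.1-fold), COL5A1 (13.3-fold), CDH2 (at least 12.9-fold), TWIST2 (10.6-fold, or 16.3-fold without SW480 replicate 2) and COL6A2 (5.17-fold) were higher too.

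Proliferation genes were lower or not called, with 9 of 22 lower and none higher. PCNA, the DNA polymerase clamp, stood at 27.3, 21.7 and 28.9 CPM in PEO4, 183, 88.6 and 174 in SW480 and 211, 117 and 258 in SW620 (5.72-fold). The replicative helicase subunits MCM5 (3.3-fold), MCM7 (3.23-fold) and MCM6 (2.26-fold), AURKB (2.58-fold) and MKI67 (2.13-fold) were lower as well. Of 17 homologous recombination genes 8 were lower and 1 higher. FANCA stood at 19.9, 16.9 and 19.7 CPM in PEO4, 68.6, 79.3 and 59.8 in SW480 and 69.7, 117 and 57.2 in SW620, and RAD51D was 2.31-fold lower. BRCA2, a core recombination mediator, averaged 19.6 ± 2.96 CPM in PEO4, 108 ± 11.8 in SW480 and 33 ± 4.01 in SW620. XRCC2, RAD51C and XRCC3 were 1.83-fold, 1.75-fold and 1.53-fold lower, and RBBP8, which starts end resection, was 2.04-fold higher.

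Antigen presentation genes were higher in 9 of 19 and lower in none. CIITA, the master activator of class II genes, stood at 11, 15.1 and 20.4 CPM in PEO4, 1.88, 3.23 and 1.66 in SW480 and 1.47, 2.81 and 2.5 in SW620. HLA-DRA, the class II alpha chain, stood at 5.75, 10.7 and 10.7 CPM in PEO4, 0.209, 0.122 and 0.0535 in SW480 and 0.0506, 1.24 and 1.83 in SW620, 8.74-fold higher, or 14.1-fold without SW620 replicate 3, and HLA-DRB1 was 16.8-fold higher, or 28.8-fold without it. HLA-DPB1, a class II beta chain, was 8.0-fold higher, with the call against SW620 lost without PEO4 replicate 1 (adjusted p = 0.075 in edgeR's test). HLA-C (2.43-fold) and the immunoproteasome subunit PSMB8 (2.37-fold) were higher by less. HLA genes have near-identical copies, so how reads were divided among them is uncertain. In the TGF-β-treated PEO4 libraries HLA-DRA averaged 2.67 ± 0.301 CPM and CIITA 7.75 ± 0.157.

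Metabolic lists stayed nearer the background. Of 20 glycolysis and hypoxia genes 6 were higher and 3 lower. SLC2A3, the neuronal-type glucose transporter, stood at 33.8, 37.5 and 38.3 CPM in PEO4, 2001, 1335 and 2183 in SW480 and 152, 125 and 189 in SW620, and SLC2A1, the general one, was 2.2-fold lower and ENO2 2.03-fold lower. BNIP3 (6.09-fold), NDRG1 (5.09-fold) and VEGFA (1.81-fold) were higher. Of 15 cholesterol synthesis genes 2 were higher and 4 lower. SREBF2, LSS and MVD were 2.32-fold, 1.54-fold and 1.47-fold lower and SQLE 2.18-fold higher. The MVD call against SW620 was lost in edgeR's test when PEO4 replicate 1, 2 or 3 or SW620 replicate 2 or 3 was left out (adjusted p from 0.057 to 0.12) and that of LSS without PEO4 replicate 2 (0.064). Of 15 amino acid stress and serine synthesis genes, DDIT3 was 2.88-fold higher and PSPH 3.49-fold lower.

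The genes with the largest folds above 10 CPM were mostly outside these lists. CYP4F11, a fatty acid and vitamin K hydroxylase of the cytochrome P450 family at chr19:15912367-15934867, stood at 72.7, 87.3 and 114 CPM in PEO4, 0.157, 0.244 and 0.107 in SW480 and 0.0506, 0 and 0.481 in SW620 (515-fold). ALDH3B2, an aldehyde dehydrogenase, stood at 38.3, 67.1 and 92.9 CPM in PEO4, 0, 0.061 and 0.107 in SW480 and 0.101, 0 and 0.337 in SW620 (at least 396-fold). Both varied within PEO4, and the highest SW library, SW620 replicate 3, held 10 and 7 counts of them. LONRF2, a ring finger protein, averaged 659 ± 36 CPM in PEO4 and 1.26 ± 0.386 and 1.87 ± 2.39 in the SW lines, and ID4, an inhibitor of basic helix-loop-helix factors, 631 ± 67.3, 1.13 ± 0.24 and 1.89 ± 2.52. MAL, a lipid raft protein of apical transport, averaged 402 ± 81.3, 0.609 ± 0.0332 and 1.26 ± 1.84. SW620 replicate 3 was the highest SW620 library for these genes, and without it the fold of ID4 went from 333-fold to 559-fold and that of MAL from 319.7-fold to 659.8-fold. CTNND2, a neural relative of p120 catenin, was at least 349-fold higher, TRIM55, a muscle ring finger protein, 334-fold, and RIC3, a chaperone of nicotinic receptors, 318-fold. EMX2OS was 371-fold higher beside its antisense partner EMX2, and ESR1 completes the first 10. EMX2 and EMX2OS overlap on opposite strands, as do RIC3 and TUB, and ESR1 and SYNE1. CTNND2, ID4 and MAL also overlap genes on the opposite strand. Without strand information the reads of such overlapping genes cannot be told apart.

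Among the 10 genes with the largest folds on the lower side, PDGFA, a platelet-derived growth factor chain, stood at 0.599, 1.2 and 3.26 CPM in PEO4, 389, 328 and 410.4 in SW480 and 279, 251 and 298 in SW620. FGF19 at chr11:69698232-69704642 and its neighbour FGF3 at chr11:69809969-69819024 were both lower: FGF19 stood at 0.299, 0.422 and 2.17 CPM in PEO4, 220.4, 146 and 231 in SW480 and 177, 90.3 and 178 in SW620, and FGF3 averaged 0.337 ± 0.272, 75.8 ± 6.46 and 54.2 ± 11.9. IGF2BP1, a fetal RNA-binding protein, stood at 0.599, 0.843 and 1.79 CPM in PEO4, 209, 175 and 212 in SW480 and 234, 224 and 264 in SW620, 184-fold lower. EN2, a homeobox factor of the midbrain-hindbrain boundary, averaged 0.301 ± 0.241, 59.2 ± 11.9 and 58.4 ± 19.2 CPM. HAS2, a hyaluronan synthase that overlaps its antisense gene HAS2-AS1, was at least 157-fold lower, PTPRN2, a dense-core vesicle protein, 148-fold, and SLC17A9, a vesicular nucleotide transporter, 152-fold. PTPRN2 and IGF2BP1 also overlap genes on the opposite strand. Without PEO4 replicate 3 the fold of EN2 rose from 194-fold to 323-fold, of PDGFA from 164-fold to 306-fold, of FGF3 from 161-fold to 301-fold, of FGF19 from 154-fold to 411-fold and of SLC17A9 to 336-fold.

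A gene family not on any list, the clustered protocadherins, was higher in PEO4 in nearly every member; it was picked after the single-gene values were seen. These cell adhesion molecules, best known from neurons, are encoded in 3 adjacent clusters on chromosome 5, where each variable exon has its own promoter and most promoters share a conserved element at which the CTCF protein binds. All 15 tested alpha genes were higher in PEO4, as were 14 of 16 beta and 19 of 22 gamma genes, and none was lower. These counts are a description only: 8 of the alpha genes had all SW libraries at or under the floor, so such genes passed the filter on low counts through PEO4 and could not come out lower. The summed level of the alpha genes was 167 to 181 CPM in PEO4, 0.994 to 1.71 in SW480 and 1.18 to 2.79 in SW620. The beta sums were 146 to 179 CPM in PEO4 and 10.6 to 18.7 in the SW libraries, and the gamma sums 223 to 260 and 57.5 to 69.0. The ratio between the lines thus narrowed from alpha to gamma, and no SW library overlapped PEO4 in any of the 3 sums.

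Promoters of 3 alpha and 2 beta genes are shown because the members moved together. They are from RefSeq (GRCh38.p14, plus strand, 250 bases before to 50 after the start) and lie at chr5:140827710-140828009, chr5:140855647-140855946, chr5:140875058-140875357, chr5:141094365-141094664 and chr5:141213669-141213968. The capitals mark the most common 8-base word among the promoters of each cluster, searched on the gene's strand and found from these promoters themselves.
PCDHA6: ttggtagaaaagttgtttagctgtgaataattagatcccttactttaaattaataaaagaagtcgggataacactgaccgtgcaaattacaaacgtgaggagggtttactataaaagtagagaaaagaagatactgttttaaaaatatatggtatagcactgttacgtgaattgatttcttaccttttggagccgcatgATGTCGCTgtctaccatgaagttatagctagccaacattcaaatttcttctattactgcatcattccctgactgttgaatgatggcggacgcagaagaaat
PCDHA10: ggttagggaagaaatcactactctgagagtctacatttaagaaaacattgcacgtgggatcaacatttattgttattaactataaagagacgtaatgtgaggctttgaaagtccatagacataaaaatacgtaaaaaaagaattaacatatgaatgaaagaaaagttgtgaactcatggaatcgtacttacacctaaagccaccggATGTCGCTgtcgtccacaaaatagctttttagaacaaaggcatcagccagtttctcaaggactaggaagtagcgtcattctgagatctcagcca
PCDHA12: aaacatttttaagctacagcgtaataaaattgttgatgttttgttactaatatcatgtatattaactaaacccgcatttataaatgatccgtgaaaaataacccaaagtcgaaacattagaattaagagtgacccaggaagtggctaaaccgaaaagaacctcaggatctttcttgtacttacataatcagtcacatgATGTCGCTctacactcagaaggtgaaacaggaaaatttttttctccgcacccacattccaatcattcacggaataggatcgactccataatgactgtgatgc
PCDHB2: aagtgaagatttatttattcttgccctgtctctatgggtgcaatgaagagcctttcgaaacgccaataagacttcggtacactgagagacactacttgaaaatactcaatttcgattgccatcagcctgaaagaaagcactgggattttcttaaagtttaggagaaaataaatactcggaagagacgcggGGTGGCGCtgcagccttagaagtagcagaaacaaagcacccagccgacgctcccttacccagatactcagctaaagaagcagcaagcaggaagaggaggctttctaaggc
PCDHB13: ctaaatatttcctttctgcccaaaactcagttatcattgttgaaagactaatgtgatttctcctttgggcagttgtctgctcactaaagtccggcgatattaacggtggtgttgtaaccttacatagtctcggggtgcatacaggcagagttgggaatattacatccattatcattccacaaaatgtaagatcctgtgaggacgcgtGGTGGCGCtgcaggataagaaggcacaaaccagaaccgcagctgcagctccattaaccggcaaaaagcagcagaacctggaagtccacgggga
ATGTCGCT was in 9 of 11 alpha promoters and 43 (0.158%) of 27195 promoters in the table, and GGTGGCGC was in 13 of 14 beta promoters and 346 (1.27%) of all. The most common gamma word, CGCCGCTG, was in 10 of 18 gamma promoters and 546 (2.01%) of all, and no gamma promoter is shown. In the promoters shown the word starts 43 to 60 bases before the start of the transcript. These are matches of letters, and no binding or methylation was measured. Of the tested genes, 13 of 15 alpha, 14 of 16 beta and 20 of 22 gamma had a promoter entry, and the C-type genes of the alpha and gamma clusters were left out of the search for words.

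PCDHA10 stood at 39.7, 37.7 and 33.3 CPM in PEO4, 0.0523, 0.488 and 0 in SW480 and 0.0506, 0 and 0.24 in SW620, 205-fold higher (log2 differences 7.72 (SE 0.58) and 8.40 (SE 0.61), adjusted p = 3.9e-07 and 2.4e-07 in edgeR's test). PCDHA12 stood at 29, 25.7 and 29.2 CPM in PEO4, 0.0523, 0.061 and 0.0535 in SW480 and 0.0506, 0 and 0.385 in SW620 (at least 168-fold), and PCDHA6 at 25.6, 21.2 and 21.6 CPM in PEO4, 0.0523, 0.061 and 0 in SW480 and 0, 0 and 0.192 in SW620 (at least 137-fold). The highest SW library held 8 counts of PCDHA10, 8 of PCDHA12 and 4 of PCDHA6, against at least 352 in each PEO4 library. PCDHB2 stood at 47.2, 42.1 and 37.2 CPM in PEO4, 0.157, 0.305 and 0.16 in SW480 and 0.101, 0.0562 and 0.385 in SW620 (203-fold), and PCDHB13, which the SW lines also expressed, at 21.1, 20.4 and 20.2 CPM in PEO4, 2.15, 2.74 and 2.46 in SW480 and 1.21, 0.786 and 0.914 in SW620 (8.4-fold). PCDHGB4 was 16.5-fold and PCDHGB5 20.8-fold higher. PCDHGC3, at the end of the gamma cluster, was the exception among abundant members, at 29.1, 22.6 and 22.6 CPM in PEO4, 41, 30.8 and 45.5 in SW480 and 26.3, 17.6 and 34 in SW620, where the groups overlapped. Transcripts of a cluster share their last exons in the alpha and gamma clusters, and the beta genes have near-identical copies, so counts of single members are uncertain. In the TGF-β-treated libraries PCDHA10 averaged 40.2 ± 2.74 CPM and PCDHB2 51.1 ± 1.68.

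**Figure D4:**
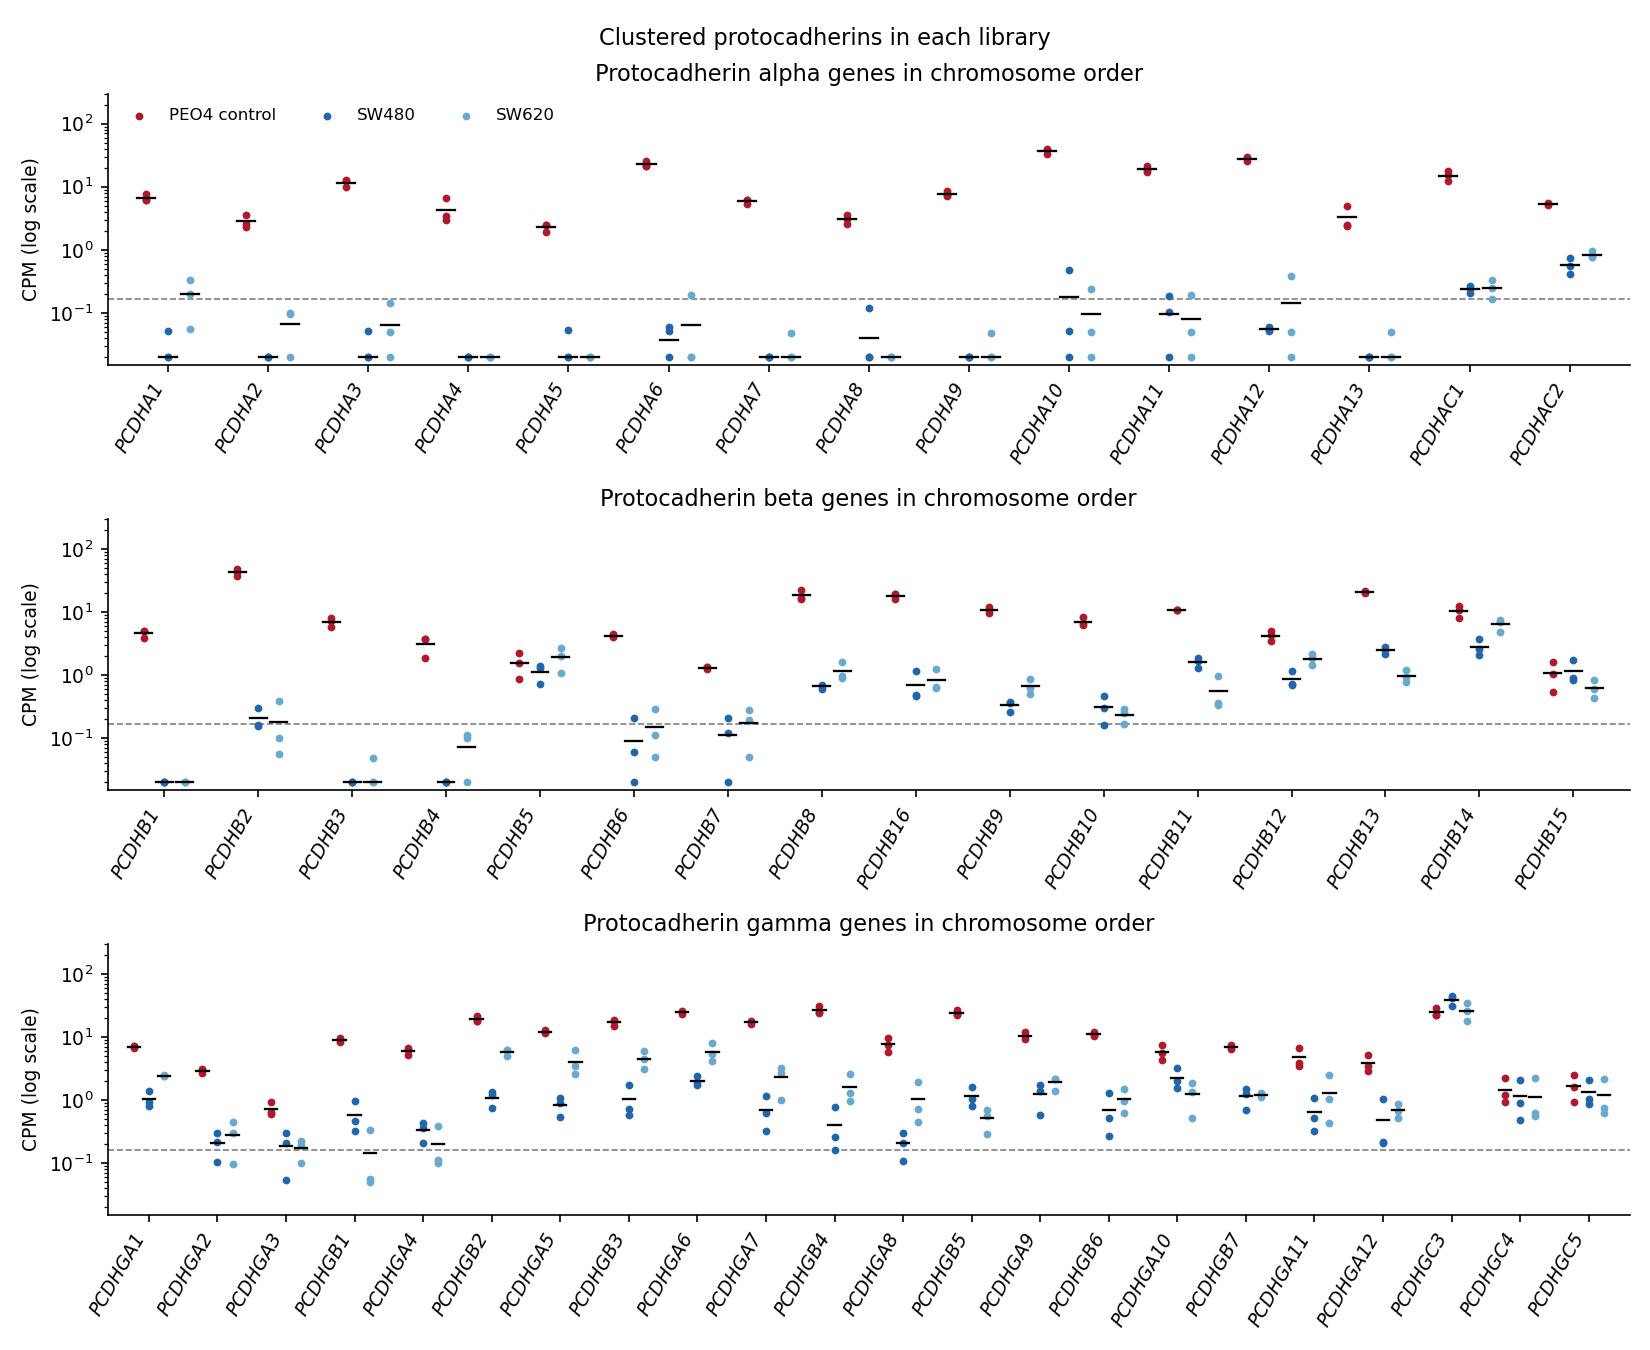
Clustered protocadherin genes in chromosome order, in CPM on a log scale; points are libraries, bars are means of 3, the dashed line is the 3-count floor, and values under 0.02 are drawn at 0.02. All 15 alpha genes lie apart from the SW libraries, while PCDHGC3 overlaps them.

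Zinc finger genes of the ZNF series on chromosome 19, most of them KRAB repressors, were also picked after their values were seen. Of 232 tested, 98 (42.2%) were higher in PEO4 and 3 (1.29%) lower. The other 902 protein-coding genes of that chromosome were higher in 23.2% and lower in 16.7%, and ZNF genes of other chromosomes in 35.1% and 13.5% of 222. ZNF91, a repressor of a retroelement class, stood at 246, 240.1 and 254 CPM in PEO4, 29.7, 30.4 and 27 in SW480 and 42.3, 40.2 and 40.1 in SW620 (6.04-fold). A run of neighbours between chr19:21804949-21852125 (ZNF43) and chr19:22179091-22215775 (ZNF676) was near the floor in both SW lines: ZNF43 stood at 55, 56.4 and 51.1 CPM in PEO4, 0.366, 0.183 and 0.321 in SW480 and 0.101, 0.337 and 0.625 in SW620, ZNF208 averaged 24.3 ± 4.59, 0.0527 ± 0.0523 and 0.0649 ± 0.0732, and ZNF257 11 ± 0.453, 0.0357 ± 0.0618 and 0.0321 ± 0.0555. Another run held ZNF415, ZNF347, ZNF665 and ZNF677, with 27.8 ± 2.61 CPM of ZNF677 in PEO4 and 0.0759 ± 0.0398 and 0.0695 ± 0.0607 in the SW lines. ZNF135, toward the chromosome's end, was at least 179.7-fold higher. The summed level of the 232 genes was 4674 to 4787 CPM in PEO4, 2631 to 2944 in SW480 and 2348 to 2497 in SW620. With total counts in place of TMM factors, 75 were higher and 15 lower.

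The shares of called genes also differed between chromosomes. Over all chromosomes 23.9% of tested protein-coding genes were higher and 19.4% lower. On chromosome 8 the shares were 57.5% and 6.55% of 504 genes, with medians of 1.20 and 1.16 on the log2 scale, and on chromosome 18 52.1% and 5.15% of 194 (medians 1.00 and 1.15). Chromosome 13 was the reverse, with 6.69% higher and 52.8% lower of 254 (medians -1.33 and -0.76). The shares varied within a chromosome. In windows of 10 Mb with at least 10 genes, the medians on chromosome 8 rose from -0.08 against SW480 and -1.06 against SW620 in the first window to 1.95 and 1.88 in the last, and 11 of its 15 windows exceeded 0.5 against both lines, compared with 41 of 290 over the genome. On chromosome 18 all 5 windows past 30 Mb did so and the 3 before it did not, and on chromosome 13, 6 of 8 windows were below -0.5 against both lines, compared with 33 of 290. Genes of a chromosome are not independent, DNA copy number was not measured, and its part in these differences was not tested.

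**Figure D5:**
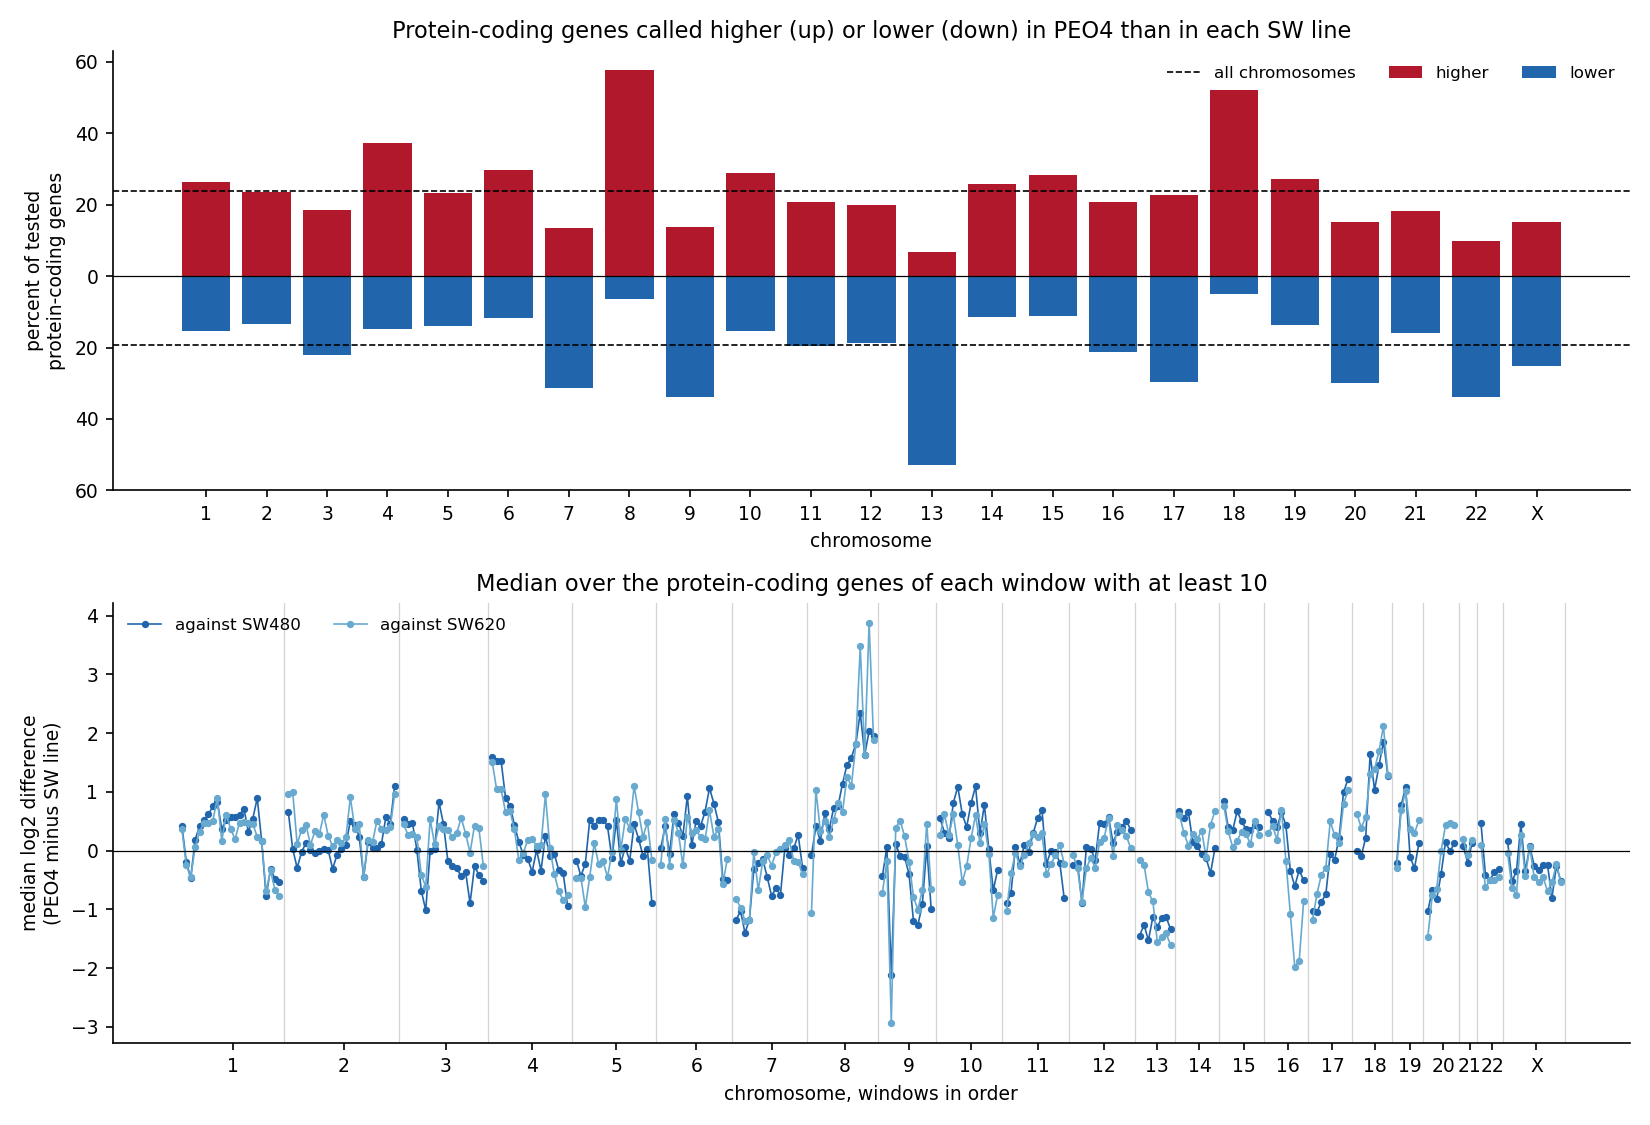
Above, the share of tested protein-coding genes of each chromosome called higher (up) or lower (down) in PEO4 than in each SW line, with dashed lines for all chromosomes (23.9% and 19.4%); below, the median log2 difference over the genes of each 10 Mb window with at least 10. Chromosomes 8 and 18 stand out upward and chromosome 13 downward, and 1 window of chromosome 9 has medians of -2.12 and -2.93.

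That window of chromosome 9, from 20 to 30 Mb, holds the cell cycle inhibitors CDKN2A and CDKN2B and their neighbour MTAP, an enzyme of methionine salvage; these genes were picked after their values were seen. MTAP at chr9:21802543-21937651 stood at 0.359, 0.241 and 0.651 CPM in PEO4, 54.7, 49.3 and 52.7 in SW480 and 115, 95.6 and 101 in SW620. CDKN2A at chr9:21967753-21995301 stood at 0.479, 0.241 and 1.09 CPM in PEO4, 48, 45.2 and 45.7 in SW480 and 64.5, 56.2 and 81.8 in SW620, and CDKN2B at chr9:22002903-22009363 at 0.0599, 0 and 0.38 CPM in PEO4, 30.1, 33.7 and 30.2 in SW480 and 27.2, 21.4 and 26.3 in SW620. All 3 were at most 1.09 CPM in each PEO4 library and at least 21.4 in each SW library, and the folds were 125-fold, 76.9-fold and at least 143-fold. Without PEO4 replicate 3 the CDKN2A fold was 129-fold. KLHL9 on one side averaged 0.512 ± 0.262, 24.1 ± 2.91 and 38.9 ± 9.58 CPM, and ELAVL2 on the other 0.0964 ± 0.091, 2.68 ± 1.54 and 18.1 ± 1.95. Farther out FOCAD remained at 9.74 ± 1.71 CPM in PEO4 against 33.9 ± 2.61 and 58.2 ± 2.0, and TUSC1 was 22.1-fold higher in PEO4. The TGF-β-treated PEO4 libraries gave means of 0.695 ± 0.236 CPM for MTAP, 0.538 ± 0.49 for CDKN2A and 0.282 ± 0.34 for CDKN2B. NF2, the tumour suppressor merlin at chr22:29603556-29698598, stood at 0.898, 0.663 and 2.44 CPM in PEO4, 165, 105 and 136 in SW480 and 86.6, 72.4 and 116 in SW620 (68.6-fold lower, or 117-fold without PEO4 replicate 3; chosen after its values were seen). Its neighbours differed from it: NIPSNAP1 averaged 42.9 ± 2.45 CPM in PEO4, 38.1 ± 6.45 in SW480 and 67.9 ± 21.7 in SW620, and CABP7 was 15.4-fold higher in PEO4.

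Markers of other cell types were checked in all 3 lines. Of 8 immune markers 4 were tested and none was called in both comparisons, with summed levels of 7.76 to 10.8 CPM in PEO4, 2.67 to 3.82 in SW480 and 2.48 to 16.4 in SW620; PTPRC, which defines leukocytes, stood at 3.05, 3.01 and 1.95 CPM in PEO4, 0.0523, 0.061 and 0 in SW480 and 0.202, 2.81 and 5.19 in SW620 (named as the defining marker). Of 9 fibroblast markers 6 were tested, with 1 higher, 1 lower and 1 called with opposite signs. The sums over all 9 were 248 to 387 CPM in PEO4, 16.2 to 17.3 in SW480 and 14.1 to 24.0 in SW620. THY1 made up most of the PEO4 sum at 374, 276 and 238 CPM (175-fold higher, or 317-fold without SW620 replicate 3). DCN, PDGFRA and FAP did not pass the filter and averaged 0.132 ± 0.116, 0.020 ± 0.0346 and 0.080 ± 0.0914 CPM in PEO4. Of 8 mesothelial markers 6 were tested, and 3 were higher and none lower: UPK3B (42.4-fold), BNC1 (at least 153-fold) and PDPN (at least 11.3-fold). The sums over all 8 were 236 to 242 CPM in PEO4, 1179 to 2202 in SW480, where KRT5 averaged 1694 ± 511 CPM (picked after its value was seen), and 7.45 to 15.7 in SW620. CALB2 and ITLN1 did not pass the filter. Of 7 endothelial markers ERG (at least 51.8-fold) and CDH5 (at least 4.65-fold) were higher, though the CDH5 call against SW620 was lost without PEO4 replicate 1 (adjusted p = 0.067 in edgeR's test) or SW620 replicate 1 (0.068), with sums of 11.9 to 14.4, 3.35 to 3.60 and 5.51 to 9.77 CPM. Of 5 neuroendocrine markers CHGB (20.9-fold), SYP (18.8-fold) and CHGA (2.05-fold) were lower, though the CHGA call against SW620 was lost without PEO4 replicate 2 or 3 (adjusted p = 0.052 in edgeR's test for each), with sums of 3.13 to 4.37, 16.8 to 23.1 and 42.2 to 64.6 CPM. The part of other cells in these levels was not tested.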

How the data were processed

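Total RNA of PEO4, SW480 and SW620 cells was depleted of ribosomal RNA and sequenced, per the labels' protocols. The authors deposited a table of raw counts per gene; the submitters' processing notes name Trimmomatic 0.36, STAR 2.5.2b, featureCounts of Subread 1.5.2, DESeq2 and the GRCh38 build, and the annotation release and the use of strand are not given in the sources used here. All columns used matched a sample label. Positions and types came from GENCODE 29 (GRCh38), which held 56898 of 57500 IDs, and promoters from RefSeq.

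From the counts, edgeR 4.0.16 (limma 3.58.1, R 4.3.3) fitted the 9 libraries with TMM factors and 3 groups after edgeR's filter on low counts, and tested PEO4 control against each SW line by quasi-likelihood with Benjamini-Hochberg adjustment over 22936 genes. The fit was tested on simulated data. Folds are the smaller of the 2 ratios of mean CPM, each mean at or above 3 counts per library. The floors cover counting error only, while the SEs come from the fit and include the spread between libraries.

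Named genes were the 10 largest folds in each direction with at least 10 CPM on the higher side and no overlap of libraries, up to 6 per direction from each list, PAX8, CDX2 and 3 genes with opposite signs; genes of the Y chromosome and XIST were left out, and other names were chosen after their values were seen. Some genes that this rule names are not reported here. The members and lists were chosen with earlier results of these data known. Alternatives were DESeq2 1.42.0, limma-voom, other scalings, filters and sets of libraries, a replicate block, glmTreat with a 2-fold minimum, and fits with each library left out in turn.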

Additional observations from a re-analysis of the deposited data

Results flagged for a closer look

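Of 482 genes called with opposite signs in the 2 comparisons, with PEO4 between the SW lines, the 3 with the largest smaller log2 difference are given here. They were chosen for this pattern, so the difference between the SW lines is a description and was not tested apart from that choice. GNG11, a G protein gamma subunit, stood at 1.5, 1.39 and 1.52 CPM in PEO4, 40.4, 23.3 and 27.7 in SW480 and 0.0506, 0.0562 and 0.0962 in SW620, and its log2 difference of SW620 from SW480 was -8.66. ANKRD1, a stretch-responsive ankyrin repeat protein, stood at 17.5, 13.4 and 7.65 CPM in PEO4, 288, 154 and 231 in SW480 and 1.01, 1.01 and 0.24 in SW620, with a log2 difference of -8.23 between the SW lines. KANK4 stood at 2.58, 1.33 and 0.923 CPM in PEO4, 19.4, 17.6 and 24.4 in SW480 and 0.101, 0 and 0.0481 in SW620, with a log2 difference of -8.46. In each gene every SW480 library was above, and every SW620 library below, all PEO4 libraries. The fitted differences of GNG11 and KANK4, which were under the floor in SW620, depend on the prior count and are no bounds.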

How the results depend on the processing

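The counts of genes higher and lower in PEO4 than in each SW line, 4409 and 4278, came to 4607 and 4299 with DESeq2 and to 4602 and 3959 with limma-voom. With glmTreat and a 2-fold minimum, 2180 were higher and 1943 lower, with 6036 called against SW480, 6648 against SW620 and 122 with opposite signs. With at least 10 counts in every library, 14616 genes were tested, 2824 were lower and 2905 were at least 2-fold apart, where fewer genes could be called. Leaving out each library in turn gave 3873 to 4980 higher and 3529 to 4640 lower. Without both shallow SW libraries, an alternative chosen after seeing the data, 4718 were higher and 4264 lower. Of 386 log2 differences of named genes none changed sign under any alternative, 60 lost the call under glmTreat and at most 7 under each other alternative; under the 10-count filter 192 could be compared. The filter left none of the alpha protocadherins, 3 intestinal, 8 HOX and 9 Müllerian genes, since a gene near 0 on one side does not pass it. Of these 9 Müllerian genes 6 were called higher. Over the other alternatives, glmTreat left out, the members called lower ranged from 7 to 14 for the intestinal list, 29 to 32 for the HOX genes, 10 to 12 for the Wnt targets and 0 to 4 for the TGF-β receptors and SMADs, and 11 Müllerian genes were called higher in each.

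The labels do not say that a replicate number marks a shared batch, and the numbers were not taken as pairs, since not every same-numbered pair correlated above 0.1: the correlations of deviations were 0.10, 0.27 and 0.02 between PEO4 and SW480, -0.03, 0.32 and 0.15 between PEO4 and SW620, and 0.01, 0.62 and 0.50 between SW480 and SW620. The replicate 2 libraries did deviate together in all 3 lines. With a replicate block 5054 were higher and 4854 lower. Between libraries of different numbers the correlations ran from -0.57 to 0.23, and not every library correlated best with its own number. Depth limits calls near the floor of 3 counts, where folds are bounds, and low counts of abundant genes of the other lines limit folds above about 100.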
